A study of Homo sapiens with 9 samples.

Results

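The 45 genes described here encode the enzymes of glycolysis, the pentose phosphate pathway, pyruvate entry into mitochondria and the tricarboxylic acid (TCA) cycle, together with TXNIP, a restraint on glucose uptake. They were chosen by gene symbol, with no measured value in the rule, and all 45 were found among the 17518 genes of the deposited normalized count table. The cells were COR-L279, an established human small cell lung cancer line of the NEUROD1-defined SCLC-N subtype, labelled wild type and grown in RPMI with serum. They were exposed for 24 h to 0.5 µM JQ1, to 1.5 µM JQ1 or to DMSO, the vehicle. JQ1 displaces the BET bromodomain proteins, readers of acetylated histones, from chromatin, and the design asks how the transcriptome of these cells answers to each dose. Each group had 3 libraries of total RNA, labelled biological replicates. The labels do not say whether these came from separate passages, so p-values measure the spread between these libraries of a single line.

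Glycolysis splits glucose into pyruvate in the cytosol. Hexokinase, phosphofructokinase and pyruvate kinase catalyse its committed steps, and several steps are shared by isozymes encoded by separate genes. The pentose phosphate pathway branches off at glucose 6-phosphate and yields NADPH and ribose 5-phosphate. Lactate dehydrogenase reduces pyruvate to lactate, while the pyruvate dehydrogenase complex turns it into acetyl-CoA for the TCA cycle and is switched off by the pyruvate dehydrogenase kinases. TXNIP is an arrestin-fold protein that promotes removal of the glucose transporter GLUT1 from the cell surface. Many glycolytic genes are known targets of MYC and of hypoxia-inducible factors, and TXNIP is a known target of the glucose-sensing factors MondoA (MLXIP) and ChREBP (MLXIPL). MYC, MondoA and ChREBP recognise E boxes with the core CACGTG or close variants.

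Windows of 250 bases before the start site are shown for TXNIP, the member with the largest rise, for its relative ARRDC4, which rose with it, for HK2, the glycolytic member with the largest fall, and for LDHA, whose window holds 2 full E boxes. They are RefSeq sequences of build GRCh38.p14, printed 5′ to 3′ on the gene's strand. TXNIP lies on the minus strand at chr1:145996580-145996829, ARRDC4 on the plus strand at chr15:97960453-97960702, HK2 on the plus strand at chr2:74833877-74834126 and LDHA on the plus strand at chr11:18394313-18394562. Capitals mark the E box letters CACGTG and the shorter core ACGTG that it contains, and also CCAAT, each on either strand. In TXNIP they also mark a pair of CACGNG motifs with 5 bases between them.
TXNIP: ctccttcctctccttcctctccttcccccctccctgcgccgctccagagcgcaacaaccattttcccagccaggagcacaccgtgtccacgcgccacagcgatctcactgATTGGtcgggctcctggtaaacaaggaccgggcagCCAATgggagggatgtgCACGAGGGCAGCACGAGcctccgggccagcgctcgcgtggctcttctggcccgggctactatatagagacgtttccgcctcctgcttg
ARRDC4: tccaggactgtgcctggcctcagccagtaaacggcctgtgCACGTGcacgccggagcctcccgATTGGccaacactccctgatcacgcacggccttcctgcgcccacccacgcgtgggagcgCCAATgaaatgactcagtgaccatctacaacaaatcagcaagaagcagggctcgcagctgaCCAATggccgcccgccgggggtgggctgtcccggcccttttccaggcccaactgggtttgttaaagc
HK2: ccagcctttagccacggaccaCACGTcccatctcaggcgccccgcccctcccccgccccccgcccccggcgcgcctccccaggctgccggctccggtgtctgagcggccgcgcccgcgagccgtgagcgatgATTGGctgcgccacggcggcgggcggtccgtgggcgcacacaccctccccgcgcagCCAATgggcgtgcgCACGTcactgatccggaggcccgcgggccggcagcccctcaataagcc
LDHA: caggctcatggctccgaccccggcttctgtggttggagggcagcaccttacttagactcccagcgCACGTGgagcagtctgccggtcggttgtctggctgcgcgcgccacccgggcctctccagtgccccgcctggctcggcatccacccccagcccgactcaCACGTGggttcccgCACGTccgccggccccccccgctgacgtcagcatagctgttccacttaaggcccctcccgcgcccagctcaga
The TXNIP window held the spaced pair, starting 88 bases before the start site, and CCAAT letters at 140 and 105 bases before it. The spaced pattern was searched for after the sequences had been read, and it occurred in 20 of 35116 windows of the table, 0.057%. The ARRDC4 window held CACGTG at 210 bases before the start site and CCAAT letters at 187, 128 and 67. The HK2 window held ACGTG on the reverse strand, printed as CACGT, at 229 and 48 bases, and CCAAT letters at 118 and 62, while LDHA held CACGTG at 185 and 87 bases before its start and ACGTG on the reverse strand at 73. Of the members, 44 had at least 1 window of 250 bases before to 50 after a start site, 72 windows in all. CACGTG was found on either strand in 9.72% of the members' windows, against 7.26% of all windows. The shares were 34.7% against 21.4% for ACGTG, 41.7% against 36.5% for GCGTG and 40.3% against 34.6% for CCAAT. Both ACGTG and GCGTG are forms of the core of the hypoxia response element. The letters ACGTG alone therefore do not tell that element from part of an E box. By gene, CACGTG occurred in a window of 15.9% of the members, against 8.77% of all genes in the table. It occurred for 3 of the 17 members that rose at 1.5 µM JQ1 and have a window, and for 4 of the 18 that fell. These are counts of letters and not of bound sites.

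Read depth was 60721187 to 88482001 whole reads per library, and the 45 genes took 1.80% to 1.90% of the reads. The summed level of 5 SCLC-N markers was 1294 to 1301 FPKM at 0.5 µM JQ1, 1269 to 1296 at 1.5 µM JQ1 and 1320 to 1341 in DMSO. Single markers moved in both directions (mean FPKM at 0.5 µM, at 1.5 µM and in DMSO). NEUROD1 was at 354, 361 and 267 and NCAM1 at 138, 140 and 86.9. CHGA was at 385, 370 and 526, SYP at 70.2, 65.5 and 87.6, and INSM1 at 351, 347 and 360. FPKM are fragment counts scaled by transcript length and library size. Of the 3 endothelial markers, CDH5 and VWF summed to at most 0.07 FPKM, and PECAM1 was not found by its symbol and has no value here. The 3 leukocyte markers summed to at most 0.47 FPKM. The fibroblast list summed to 54.1 to 72.9 FPKM in JQ1 libraries and 74.0 to 76.1 in DMSO, with 2 of its 6 genes under 0.5 FPKM in every library of each group. HEXIM1, a gene known to rise under BET inhibitors, averaged 5487 ± 75 normalized counts at 0.5 µM, 6976 ± 144 at 1.5 µM and 1125 ± 22 in DMSO (SD, n = 3 each). Libraries stood apart in 2 ways. At 0.5 µM, replicate 2 differed from replicates 1 and 3 by a chi-square per degree of freedom of 26.9 and 31.2, against 3.41 to 7.56 for the other pairs within groups. Replicate 3 at 0.5 µM and replicates 1 and 2 at 1.5 µM held 1476 to 2071 normalized counts of the noncoding RNA H19, 1022 to 1147 of COL3A1 and 252 to 366 of LUM, against at most 8.22, 31.8 and 4.15 in the other 3 JQ1 libraries and at most 82.8, 96.4 and 44.6 in DMSO. ALDOC was higher in those 3 libraries (2471 to 2523 normalized counts) than in the remaining JQ1 libraries (2250 to 2454), and RPE was lower (4106 to 4373, with 4416 to 4926 in the others). No other member separated these libraries. For calls against DMSO that were lost without them, the log2 fold change from the remaining libraries is given, with 1 library left at 1.5 µM. In bulk RNA, fewer cells that express a gene and less RNA per cell cannot be told apart.

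At 0.5 µM JQ1, 20 of the 45 genes rose, 16 fell and 9 did not pass the test (limma on log2 normalized counts, Benjamini-Hochberg-adjusted p under 0.05). Over all 17514 genes tested, 35.3% rose and 34.7% fell, 70% in all, so that the share of members past the test, 80%, lies near a background in which most genes passed. At 1.5 µM JQ1, 18 rose, 18 fell and 9 did not pass, against 36.9% higher and 36.2% lower of all genes, 73.1% in all. The changes were small on the whole: 9 members passed with a fold of at least 1.5 at 0.5 µM, 20% of them against 31.2% of all genes, and 10 at 1.5 µM, 22.2% against 36.5%. At 0.5 µM these were 6 higher and 3 lower members, against 13.3% and 17.9% of all genes, and at 1.5 µM 6 higher and 4 lower, against 16.7% and 19.7%. The median absolute log2 fold change of the members was 0.30 at 0.5 µM and 0.36 at 1.5 µM, beside 0.38 and 0.43 over all genes. Their median signed log2 fold change was 0.020 and 0.0022, beside -0.010 and -0.0030 over all genes. The libraries of 38 members did not overlap between 0.5 µM and DMSO, against 72.6% of all genes, and those of 41 did not overlap between 1.5 µM and DMSO, against 81.7%. The doses were compared with the same 3 DMSO libraries. The summed level of the 45 genes was 13907 ± 192 FPKM at 0.5 µM, 13737 ± 194 at 1.5 µM and 13599 ± 136 in DMSO (SD, n = 3 each).

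**Figure D1:**
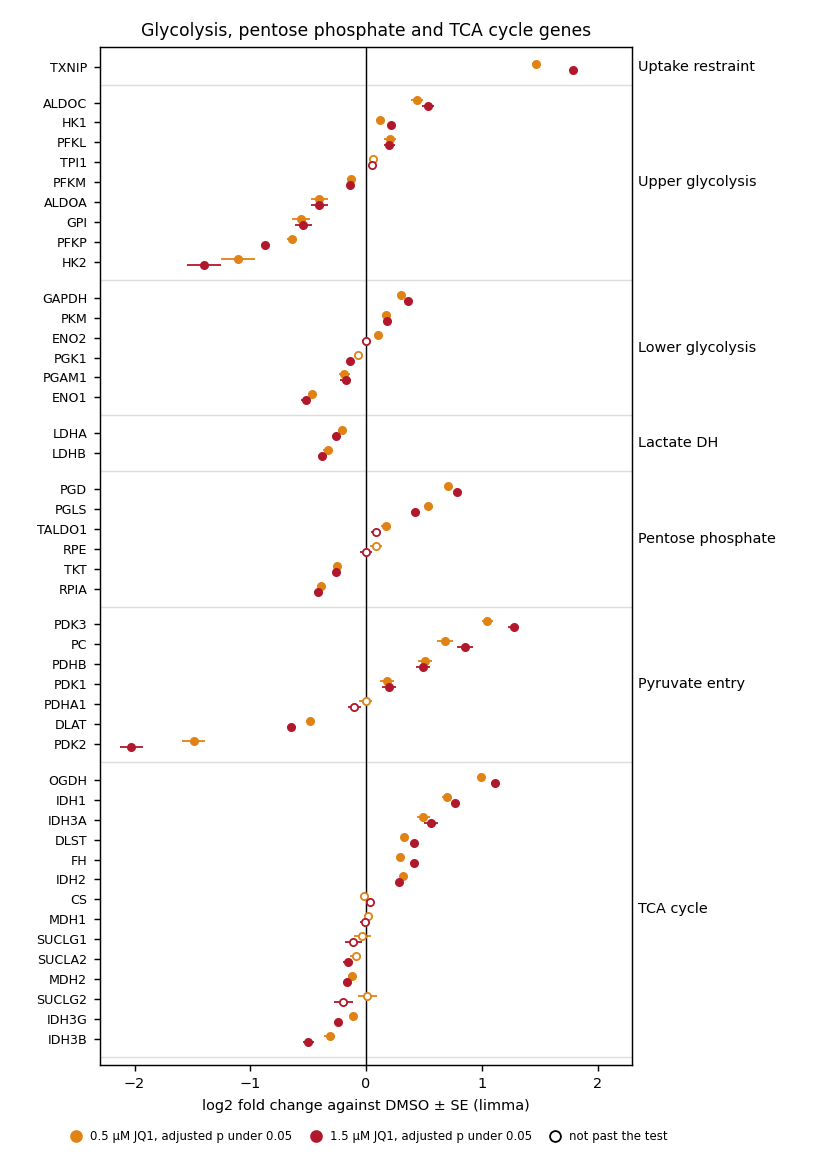
Log2 fold change of each of the 45 genes against DMSO with its standard error (limma, n = 3 libraries per group), ordered within each role by the value at 1.5 µM JQ1. Filled points passed an adjusted p of 0.05. TXNIP lies farthest to the right and PDK2 farthest to the left, and each multi-gene role except lactate dehydrogenase has members on both sides of 0.

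TXNIP (ENSG00000117289.7) had the largest rise of the 45 genes. It had 4325, 4413 and 4454 normalized counts at 0.5 µM JQ1, 5324, 5496 and 5651 at 1.5 µM, and 1581, 1574 and 1606 in DMSO. All 3 groups were apart, and the libraries of a group lay close together. The rise was 2.77-fold at 0.5 µM (1.47 ± 0.033 on the log2 scale, SE, 3 libraries per group, limma adjusted p = 6.7e-10) and 3.46-fold at 1.5 µM (1.79 ± 0.033, adjusted p = 1.1e-10). In FPKM it stood at 25.1 ± 0.91, 32.2 ± 2.1 and 9.53 ± 0.69 (SD, n = 3) at 0.5 µM, at 1.5 µM and in DMSO.

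TXNIP belongs to the alpha-arrestins, and all 4 ARRDC relatives on the list changed at both doses, 3 of them upward. Most genes passed the test as well, 70% at 0.5 µM and 73.1% at 1.5 µM. ARRDC4, which like TXNIP acts on glucose transporters and is a MondoA target, had 2510, 2492 and 2465 normalized counts at 0.5 µM JQ1, 2822, 2881 and 3073 at 1.5 µM, and 1079, 1117 and 1085 in DMSO (log2 fold change 1.19 ± 0.041 and 1.42 ± 0.041, SE, limma adjusted p = 3.8e-09 and 6.16e-10). ARRDC3, a regulator of beta-adrenergic receptors, rose by 0.70 and 0.92, and ARRDC1, which drives budding of vesicles, by 0.79 and 0.90. ARRDC2 fell by 0.67 and 0.80 on the same scale.

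The known activators of TXNIP moved apart from each other. MLXIPL (ChREBP) had 1100, 1214 and 1330 normalized counts at 0.5 µM, 964, 1043 and 937 at 1.5 µM, and 2141, 1988 and 1937 in DMSO, a fall on the log2 scale of -0.74 ± 0.073 and -1.04 ± 0.073 (SE, limma adjusted p = 6.24e-06 and 3.16e-07). MLXIP (MondoA) rose slightly, with a log2 fold change of 0.14 at 0.5 µM (adjusted p = 0.0395), where the libraries overlapped DMSO, and 0.27 at 1.5 µM (adjusted p = 0.00102). GLUT1 and GLUT3, the main transporters for glucose uptake in many tumours, did not pass the test. SLC2A1 (GLUT1) had 3781, 3457 and 4329 normalized counts at 0.5 µM, 4042, 3926 and 3701 at 1.5 µM, and 4125, 4124 and 4218 in DMSO (adjusted p = 0.166 and 0.234). Its JQ1 values were 3926 to 4329 in the 3 libraries with H19, with 3457 to 3781 in the remaining JQ1 libraries. SLC2A3 (GLUT3) was at 390.5 to 489 normalized counts in the 3 libraries with H19 and at most 3.52 in the other 6 (adjusted p = 0.321 and 0.0952). Of 15 transporters tested, 6 rose and 4 fell at each dose, 66.7% of them. Over all genes, 70% passed at 0.5 µM and 73.1% at 1.5 µM. SLC2A13, a myo-inositol carrier, rose by 0.89 and 1.12 log2 units, and SLC2A4 (GLUT4, at under 1 FPKM) and SLC2A6, a lysosomal transporter, fell by 0.62 and 0.72 at 0.5 µM and by 0.89 and 0.74 at 1.5 µM.

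Of the 9 genes of glucose entry and upper glycolysis, HK1, PFKL and ALDOC rose, HK2, GPI, PFKM, PFKP and ALDOA fell, and TPI1 did not pass, at both doses. HK2, the inducible hexokinase of growing tissues and many tumours, showed the largest fall among the glycolytic members. It had 2645, 1755 and 2884 normalized counts at 0.5 µM, 1920, 1970 and 1920 at 1.5 µM, and 4891, 5032 and 5413 in DMSO. All 6 JQ1 libraries were below all DMSO libraries, and the low value at 0.5 µM is replicate 2. The fall was 2.15-fold at 0.5 µM (log2 fold change -1.10 ± 0.15, limma adjusted p = 5.45e-05) and 2.64-fold at 1.5 µM (-1.40 ± 0.15, adjusted p = 7.2e-06). Without replicate 2 the value at 0.5 µM was -0.89 (adjusted p = 7.2e-09).

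HK1, the constitutive hexokinase, had 14067, 13770 and 14695 normalized counts at 0.5 µM, 15040, 15163 and 15462 at 1.5 µM, and 12900, 13246 and 13088 in DMSO, log2 changes of 0.12 and 0.22. At 0.5 µM its call was lost under upper-quartile scaling (0.062, adjusted p = 0.121) and without the 3 libraries with H19 (0.090, adjusted p = 0.0658). HK2 supplied 8.61 ± 2.0% of the summed HK1 and HK2 FPKM at 0.5 µM, 7.01 ± 0.27% at 1.5 µM and 18.7 ± 0.70% in DMSO (SD, n = 3). The log2 ratio of HK2 to HK1 counts was lower by 1.22 ± 0.35 and 1.62 ± 0.079 (SD of the difference) than in DMSO.

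Phosphofructokinase is a tetramer of liver (PFKL), muscle (PFKM) and platelet (PFKP) type subunits. PFKP had 7473, 7014 and 7732 normalized counts at 0.5 µM, 6266, 6252 and 6461 at 1.5 µM, and 11377, 11393 and 11914 in DMSO. The groups were apart from each other, and PFKP fell 1.56-fold at 0.5 µM (log2 fold change -0.64 ± 0.039, adjusted p = 1.67e-07) and 1.83-fold at 1.5 µM (-0.87 ± 0.039, adjusted p = 1.18e-08). PFKL rose by 0.21 and 0.20 and PFKM fell by 0.13 and 0.14 log2 units, with no overlap with DMSO. PFKP supplied 26.7 ± 0.27% of the summed phosphofructokinase FPKM at 0.5 µM and 23.9 ± 0.10% at 1.5 µM, against 36.0 ± 0.40% in DMSO, and PFKL 30.1 ± 0.79% and 30.8 ± 0.36%, against 22.6 ± 0.13%. PFKM shares exon bases with SENP1 on the opposite strand, whose signal averaged 17.1% of that of PFKM and had means of 2142 normalized counts at 0.5 µM, 1761 at 1.5 µM and 3213 in DMSO, lower in JQ1 as PFKM was. The library kit keeps strand, but the sources used here do not give the counting step's strand setting, and the partner's part in the PFKM value was not tested.

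Aldolase showed the same kind of split. ALDOC, the brain-type aldolase, had 2259, 2250 and 2475 normalized counts at 0.5 µM, 2471, 2523 and 2454 at 1.5 µM, and 1780, 1740 and 1627 in DMSO (log2 fold change 0.44 ± 0.049 and 0.53 ± 0.049, limma adjusted p = 1.62e-05 and 2.81e-06). The far more abundant ALDOA had 55170, 45293 and 57192 at 0.5 µM, 52953, 51206 and 52639 at 1.5 µM, and 70103, 68306 and 68987 in DMSO (-0.40 ± 0.071 at each dose). ALDOC made up 2.79 ± 0.26% and 2.97 ± 0.13% of aldolase FPKM in JQ1, against 1.83 ± 0.069% in DMSO. GPI, which interconverts glucose and fructose phosphates, fell by 0.56 ± 0.076 and 0.54 ± 0.076. TPI1, which interconverts the triose phosphates, had log2 fold changes of 0.058 and 0.049 (adjusted p = 0.0843 and 0.133). Summed over the 9 genes, the level was 2635 ± 74 FPKM at 0.5 µM and 2552 ± 40 at 1.5 µM, against 2877 ± 17 in DMSO (SD, n = 3 each).

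In lower glycolysis, GAPDH and PKM rose and ENO1 and PGAM1 fell at both doses, ENO2 passed the test upward at 0.5 µM and PGK1 downward at 1.5 µM. Neither gene passed the direct comparison of the doses (adjusted p = 0.0838 and 0.107). GAPDH, the most abundant of the 45 by FPKM and a common loading control, had 449889, 433595 and 461570 normalized counts at 0.5 µM, 472163, 457952 and 471090 at 1.5 µM, and 367821, 361197 and 362939 in DMSO. The JQ1 libraries were all above the DMSO libraries, and the rise was 1.23-fold at 0.5 µM (log2 fold change 0.30 ± 0.034, limma adjusted p = 1.63e-05) and 1.28-fold at 1.5 µM (0.36 ± 0.034, adjusted p = 3.14e-06). Over the 20 alternatives it ranged from 0.25 to 0.32 at 0.5 µM and from 0.30 to 0.37 at 1.5 µM. GAPDH has many processed copies, and the 16 named copies in the main table held 0.827% of its signal.

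ENO1, the ubiquitous enolase, had 80916, 74672 and 82265 normalized counts at 0.5 µM, 77294, 75447 and 76161 at 1.5 µM, and 110194, 108712 and 109561 in DMSO (log2 fold change -0.47 ± 0.037 and -0.52 ± 0.037, adjusted p = 1.16e-06 and 3.58e-07). ENO2, the neuron-specific enolase used as a serum marker of small cell lung cancer, had 36430, 34755 and 38427 at 0.5 µM, 33982, 34044 and 33941 at 1.5 µM, and 33974, 33761 and 33988 in DMSO. Its rise at 0.5 µM (0.11 ± 0.035, adjusted p = 0.0195) was lost under 5 of 20 alternatives, for example without 0.5 µM replicate 3 (adjusted p = 0.0646), without DMSO replicate 2 (adjusted p = 0.0598) and under upper-quartile scaling (adjusted p = 0.258). Without the 3 libraries with H19 that rise was 0.070 and the call was lost. At 1.5 µM the ENO2 value was 0.0034 (limma adjusted p = 0.934). ENO2 held 25.6 ± 0.54% of the summed enolase FPKM at 0.5 µM and 24.8 ± 0.32% at 1.5 µM, against 18.9 ± 0.092% in DMSO. ENO3, the muscle enolase, fell by 1.05 and 1.23 log2 units to 4.34 and 3.92 FPKM, against 9.10 FPKM in DMSO. PKM, the pyruvate kinase that yields ATP, rose by 0.18 at each dose, and PGAM1, a phosphoglycerate mutase, fell by 0.19 and 0.18. PGK1, which yields ATP from 1,3-bisphosphoglycerate, was at -0.066 at 0.5 µM (adjusted p = 0.051) and -0.14 at 1.5 µM (adjusted p = 0.000841). Without the 3 libraries with H19 the 1.5 µM calls of PGK1 and PGAM1 were lost, at log2 fold changes of -0.14 and -0.19. The summed level of the 6 genes was 7748 ± 202 FPKM at 0.5 µM, 7794 ± 124 at 1.5 µM and 7113 ± 64 in DMSO, of which GAPDH gave 5488, 5626 and 4571.

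Both lactate dehydrogenase genes fell at both doses. LDHA, the subunit that predominates in muscle and many tumours, had 56644, 51852 and 55052 normalized counts at 0.5 µM, 51924, 52523 and 53023 at 1.5 µM, and 62977, 63203 and 62898 in DMSO (log2 fold change -0.21 ± 0.034 and -0.26 ± 0.034, limma adjusted p = 0.000243 and 3.76e-05). LDHB, the heart-type subunit, had 58980, 61999 and 56524 at 0.5 µM, 58019, 56541 and 57174 at 1.5 µM, and 76678, 74591 and 72174 in DMSO (-0.33 ± 0.038 and -0.38 ± 0.038, adjusted p = 1.9e-05 and 5.44e-06). The LDHB to LDHA ratio of normalized counts at 0.5 µM overlapped that in DMSO, while on FPKM values it did not (log2 difference -0.23). Their summed level was 1401 ± 37 FPKM at 0.5 µM and 1301 ± 7.6 at 1.5 µM, against 1683 ± 24 in DMSO.

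**Figure D2:**
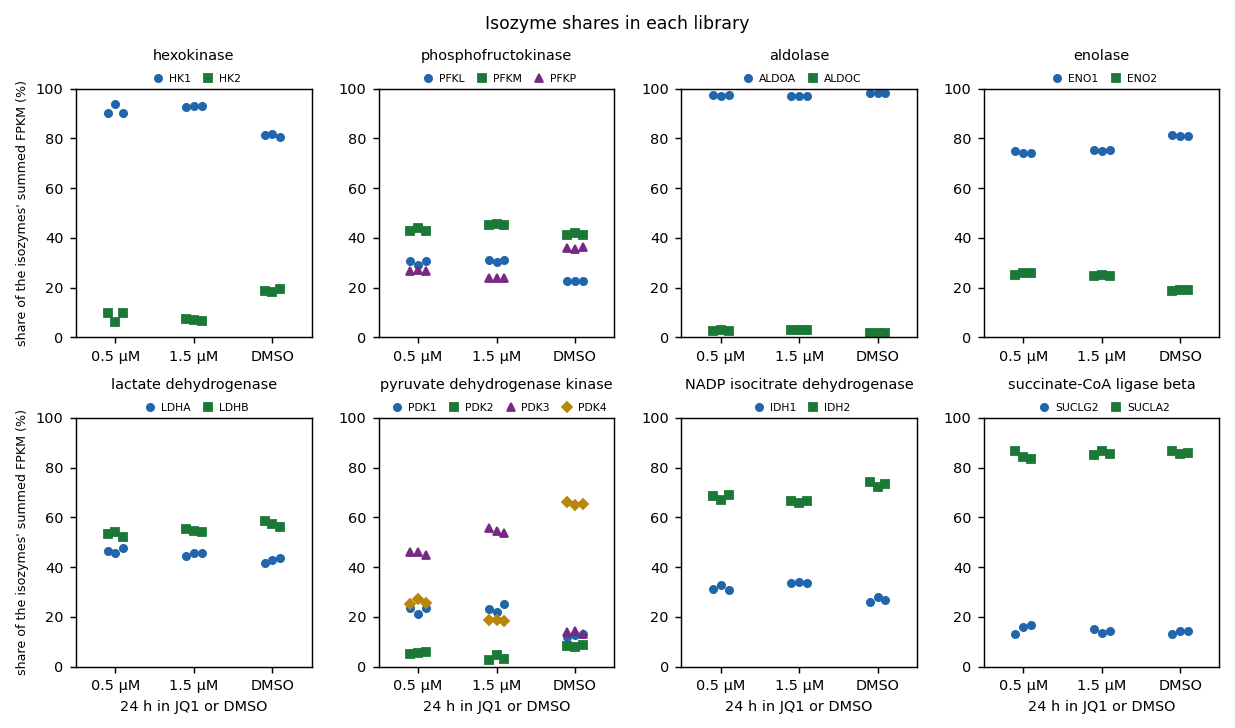
Share of each isozyme in the summed FPKM of its family, in percent, for each of the 3 libraries per group. HK2, PFKP, ENO1 and PDK4 take smaller shares in the JQ1 libraries than in DMSO, PDK3 takes a larger one, and the succinate-CoA ligase beta subunits overlap between groups.

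The ratio of isozymes within a library does not depend on the scaling between libraries. Of 8 pairs tested at each dose, 16 tests, the ratio did not overlap DMSO in 13. The exact two-sided permutation test then gave p = 0.1, the smallest that 3 against 3 libraries allow, and Benjamini-Hochberg-adjusted p = 0.123, so none of these tests could pass 0.05. Taken singly, 72.6% of all genes did not overlap DMSO at 0.5 µM and 81.7% at 1.5 µM. The share for other pairs of genes was not computed, so the 13 cannot be read as particular to isozymes. Relative to DMSO, the log2 ratio was lower by 0.85 ± 0.056 and 1.07 ± 0.029 for PFKP to PFKL, and by 0.34 ± 0.062 and 0.34 ± 0.017 for PFKM to PFKL. It was higher by 0.84 ± 0.16 and 0.94 ± 0.078 for ALDOC to ALDOA, by 0.57 ± 0.030 and 0.52 ± 0.020 for ENO2 to ENO1, and by 0.37 ± 0.092 and 0.49 ± 0.070 for IDH1 to IDH2 (SD of the difference). The exceptions were LDHB to LDHA at 0.5 µM (exact permutation p = 0.3, and 0.1 with no overlap on FPKM values) and SUCLG2 to SUCLA2 at both doses (exact permutation p = 0.4 and 0.7).

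In the pentose phosphate pathway, PGD and PGLS rose and RPIA and TKT fell at both doses, TALDO1 passed upward at 0.5 µM, and RPE did not pass. None of the 6 genes passed the direct comparison of the doses. PGD (6-phosphogluconate dehydrogenase, an NADPH-yielding step) had 19739, 21374 and 20283 normalized counts at 0.5 µM, 21378, 21565 and 21617 at 1.5 µM, and 12579, 12510 and 12390 in DMSO. It rose 1.64-fold at 0.5 µM (log2 fold change 0.71 ± 0.032, limma adjusted p = 1.91e-08) and 1.72-fold at 1.5 µM (0.78 ± 0.032, adjusted p = 5.44e-09). PGLS, the lactonase of the step before, rose by 0.54 ± 0.039 and 0.42 ± 0.039. RPIA, which makes ribose 5-phosphate, had 1960, 1985 and 1927 at 0.5 µM, 1875, 1955 and 1917 at 1.5 µM, and 2614, 2550 and 2521 in DMSO (-0.39 ± 0.035 and -0.42 ± 0.035, adjusted p = 3.14e-06 and 1.31e-06). TKT (transketolase) fell by 0.25 and 0.26.

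The oxidative enzymes of the pathway were above DMSO and the ribose isomerase and transketolase below it. TALDO1 (transaldolase) was at 0.17 at 0.5 µM (adjusted p = 0.00675), a call lost on FPKM values (0.12, adjusted p = 0.0579), and at 0.087 at 1.5 µM (adjusted p = 0.114). RPE, the epimerase, had log2 fold changes of 0.088 and 0.0022 (adjusted p = 0.145 and 0.97), and it shares exon bases with KANSL1L, whose means were 2115 normalized counts at 0.5 µM, 2382 at 1.5 µM and 1214 in DMSO. The 8 other pentose phosphate genes tested gave 3 higher and 2 lower at 0.5 µM, and 3 higher and 1 lower at 1.5 µM. That is 62.5% and 50% past the test, against 70% and 73.1% of all genes. H6PD, which oxidises hexose 6-phosphates in the endoplasmic reticulum, had 619, 617 and 593 normalized counts at 0.5 µM, 739, 725 and 689 at 1.5 µM, and 341, 337 and 324 in DMSO (0.87 ± 0.056 and 1.10 ± 0.056). PRPS2, which makes phosphoribosyl pyrophosphate from ribose 5-phosphate, fell by 0.68 and 0.69, and DERA, an aldolase of deoxyribose phosphate, rose by 0.31 and 0.37. The summed level of the 6 members was 516 ± 13 FPKM at 0.5 µM and 504 ± 7.1 at 1.5 µM, against 447 ± 8.1 in DMSO.

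Among the genes of pyruvate entry, PDK1, PDK3, PDHB and PC rose, PDK2 and DLAT fell, and PDHA1 did not pass, at both doses. PDK2, a widely expressed kinase that inactivates pyruvate dehydrogenase, had 189.9, 174 and 196 normalized counts at 0.5 µM, 124, 146 and 116 at 1.5 µM, and 520.1, 534 and 521 in DMSO. It fell 2.81-fold at 0.5 µM (log2 fold change -1.49 ± 0.10, limma adjusted p = 3.27e-07) and 4.08-fold at 1.5 µM (-2.03 ± 0.10, adjusted p = 2.19e-08), the largest fall of the 45 genes. PDK2 shares exon bases with SAMD14 on the opposite strand, which had means of 164 normalized counts at 0.5 µM, 181 at 1.5 µM and 176 in DMSO. PDK3 moved the other way, with 1879, 1980 and 1781 at 0.5 µM, 2211, 2167 and 2225 at 1.5 µM, and 892, 949 and 886 in DMSO (1.05 ± 0.048 and 1.28 ± 0.048, adjusted p = 2.39e-08 and 3.49e-09).

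PDK1, the kinase known for its induction by hypoxia, had 2102, 1868 and 2096 normalized counts at 0.5 µM, 2117, 1931 and 2094 at 1.5 µM, and 1701, 1785 and 1867 in DMSO. The libraries closest to DMSO were replicate 2 of each dose. The call at 0.5 µM (0.18 ± 0.059, adjusted p = 0.0202) was lost under 7 of 20 alternatives, with adjusted p of 0.000974 to 0.111 and including 0.0794 without DMSO replicate 1, 0.0505 without DMSO replicate 2, 0.0709 without 0.5 µM replicate 1 and 0.0655 without 0.5 µM replicate 3. At 1.5 µM (0.20 ± 0.059, limma adjusted p = 0.0115) it was lost under 3, with adjusted p of 0.00129 to 0.12. Without the 3 libraries with H19, PDK1 was at 0.15 at 0.5 µM and 0.23 at 1.5 µM, and both calls were lost.

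The fourth kinase, PDK4, which is known for its induction by fasting and fatty acids, is no member but was the most abundant PDK in DMSO. It had 2029, 2313 and 1957 normalized counts at 0.5 µM, 1459, 1500 and 1524 at 1.5 µM, and 8240, 8378 and 8567 in DMSO (log2 fold change -2.00 ± 0.056 and -2.49 ± 0.056, limma adjusted p = 1.49e-09 and 1.96e-10). By FPKM, PDK4 made up 25.9 ± 1.1% of the 4 kinases at 0.5 µM and 18.6 ± 0.27% at 1.5 µM, against 65.5 ± 0.51% in DMSO. PDK3 made up 45.7 ± 0.70% and 54.5 ± 0.98%, against 13.8 ± 0.61% in DMSO. PDK3 was the leading kinase by FPKM in all 6 JQ1 libraries, and PDK4 in all 3 DMSO libraries. PDP1, a phosphatase that reactivates the complex, rose by 0.54 and 0.59.

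**Figure D3:**
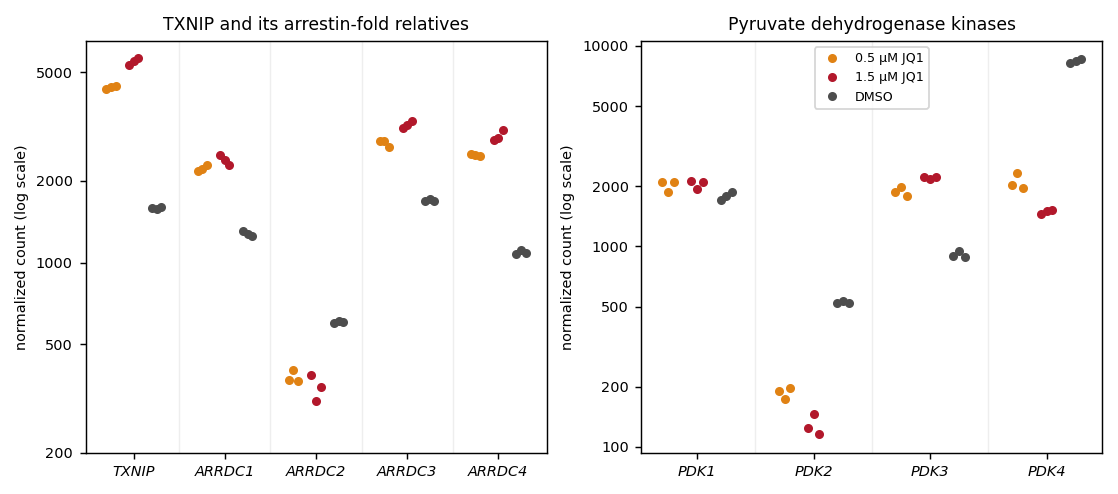
Normalized counts on a log scale of TXNIP with its ARRDC relatives (left) and of the 4 pyruvate dehydrogenase kinases (right), with 1 point per library. TXNIP, ARRDC1, ARRDC3 and ARRDC4 lie above DMSO at both doses and ARRDC2 below, PDK3 lies above DMSO, and PDK2 and PDK4 lie below it.

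The subunits of the pyruvate dehydrogenase complex did not move together. DLAT, the E2 acetyltransferase core, had 4601, 5039 and 4669 normalized counts at 0.5 µM, 4231, 4295 and 4263 at 1.5 µM, and 6631, 6789 and 6601 in DMSO (log2 fold change -0.49 ± 0.037 and -0.65 ± 0.037, adjusted p = 9.5e-07 and 7.69e-08). PDHB, the E1 beta subunit, rose by 0.51 ± 0.062 and 0.49 ± 0.062 (limma adjusted p = 2.93e-05 and 3.36e-05). PDHA1, the E1 alpha subunit, had 7975, 9414 and 8062 at 0.5 µM, 7880, 7859 and 7952 at 1.5 µM, and 8576, 8478 and 8360 in DMSO (adjusted p = 0.976 and 0.12), with replicate 2 the high library at 0.5 µM. Of the genes outside the 45, DLD, the shared E3 subunit, rose by 0.25 and 0.23, and PDHX, the E3-binding protein, fell by 0.17 and 0.26. MPC2, a subunit of the mitochondrial pyruvate carrier, rose by 0.41 and 0.34, and MPC1, the other subunit, had 0.23 (adjusted p = 0.0492) and 0.21 (adjusted p = 0.0696).

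PC, which carboxylates pyruvate to oxaloacetate, had 5077, 4181 and 5178 normalized counts at 0.5 µM, 5519, 5320 and 5391 at 1.5 µM, and 3012, 2955 and 3005 in DMSO. It rose 1.60-fold (log2 fold change 0.68 ± 0.068, adjusted p = 7.3e-06) and 1.81-fold (0.85 ± 0.068, adjusted p = 9.33e-07). On FPKM values the rises were 0.40 and 0.59. LRFN4, which shares exon bases with PC on the opposite strand, had means of 437 normalized counts at 0.5 µM, 311 at 1.5 µM and 1628 in DMSO.

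Of the 14 genes of the TCA cycle and its cytosolic counterparts, 6 rose at both doses (OGDH, DLST, IDH1, IDH2, IDH3A and FH), 3 fell at both (IDH3B, IDH3G and MDH2), SUCLA2 fell at 1.5 µM, and CS, MDH1, SUCLG1 and SUCLG2 did not pass. OGDH, the E1 subunit of 2-oxoglutarate dehydrogenase, had 17890, 16624 and 17882 normalized counts at 0.5 µM, 18805, 19144 and 19016 at 1.5 µM, and 8736, 8818 and 8755 in DMSO. The JQ1 and DMSO libraries were far apart, and OGDH rose 1.99-fold (log2 fold change 0.99 ± 0.033, limma adjusted p = 3.16e-09) and 2.17-fold (1.11 ± 0.033, adjusted p = 7.11e-10). DLST, the E2 core of the same complex, rose by 0.33 ± 0.031 and 0.42 ± 0.031. DHTKD1, an E1 subunit of the related 2-oxoadipate dehydrogenase, rose by 0.78 and 0.89.

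IDH1, the cytosolic NADP-linked isocitrate dehydrogenase, had 13974, 15247 and 13702 normalized counts at 0.5 µM, 15027, 15084 and 15056 at 1.5 µM, and 8523, 9061 and 8866 in DMSO. It rose 1.62-fold (log2 fold change 0.70 ± 0.041, adjusted p = 1.34e-07) and 1.71-fold (0.77 ± 0.041, adjusted p = 4.21e-08). IDH2, its mitochondrial counterpart and the more abundant by FPKM, rose by 0.32 and 0.28. The 3 genes of the NAD-linked enzyme, an oligomer of alpha, beta and gamma subunits, diverged. IDH3A, the catalytic alpha subunit, had 3500, 4111 and 3470 at 0.5 µM, 3773, 3828 and 3974 at 1.5 µM, and 2563, 2628 and 2644 in DMSO (0.50 ± 0.060 and 0.56 ± 0.060, adjusted p = 2.82e-05 and 8.56e-06). IDH3B had 4193, 4676 and 4268 at 0.5 µM, 3896, 3699 and 3936 at 1.5 µM, and 5658, 5336 and 5304 in DMSO (-0.31 ± 0.048 and -0.50 ± 0.048, adjusted p = 0.000174 and 3.89e-06). IDH3G fell by 0.11 (adjusted p = 0.0203) and 0.24 (adjusted p = 0.000151).

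The IDH3G call at 0.5 µM was lost under 5 of 20 alternatives. Its limma adjusted p was 0.0736 without DMSO replicate 1, 0.0506 without DMSO replicate 2 and 0.0811 without 0.5 µM replicate 1. Without the 3 libraries with H19 the call was lost too, at a log2 fold change of -0.11. IDH3A shares exon bases with CIB2 on the opposite strand, which had means of 733 normalized counts at 0.5 µM, 708 at 1.5 µM and 567 in DMSO. IDH3G shares them with SSR4 on the opposite strand, which had means of 6941 at 0.5 µM, 7189 at 1.5 µM and 8113 in DMSO. Each partner moved in the direction of the member, and its part in the member's value was not tested. SUCLA2, the ATP-forming succinate-CoA ligase beta subunit, fell by 0.16 at 1.5 µM (adjusted p = 0.00729).

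FH (fumarase) rose by 0.30 and 0.41. MDH2, the mitochondrial malate dehydrogenase, fell by 0.12 (limma adjusted p = 0.00817) and 0.16 (limma adjusted p = 0.00146). Without the 3 libraries with H19 the MDH2 values were -0.12 and -0.15, and both calls were lost. CS (citrate synthase), the cycle's entry enzyme, had 33151, 31484 and 33633 normalized counts at 0.5 µM, 33401, 34065 and 33884 at 1.5 µM, and 32188, 33222 and 33863 in DMSO, overlapping at both doses (adjusted p = 0.698 and 0.424). SUCLG1 and SUCLG2, the alpha and the GTP-forming beta subunit of succinate-CoA ligase, had log2 fold changes of -0.034 and 0.011 at 0.5 µM, and of -0.11 and -0.20 at 1.5 µM (adjusted p = 0.187 and 0.053). Of 17 further TCA-related genes tested, 7 were higher and 6 lower past the test at 0.5 µM, as were 8 and 6 at 1.5 µM. These were 76.5% and 82.4% of the 17, against 70% and 73.1% of all genes. SDHA, the flavoprotein of succinate dehydrogenase, rose by 0.52 and 0.58, and SDHB, its iron-sulfur subunit, fell by 0.21 and 0.31.

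ME1, the cytosolic NADPH-yielding malic enzyme, had 994, 1012 and 916 normalized counts at 0.5 µM, 856, 841 and 832 at 1.5 µM, and 2098, 2074 and 2112 in DMSO (-1.11 ± 0.047 and -1.31 ± 0.047, limma adjusted p = 1.34e-08 and 2.35e-09). The summed level of the 14 members was 1305 ± 15 FPKM at 0.5 µM and 1289 ± 17 at 1.5 µM, against 1211 ± 24 in DMSO.

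**Figure D4:**
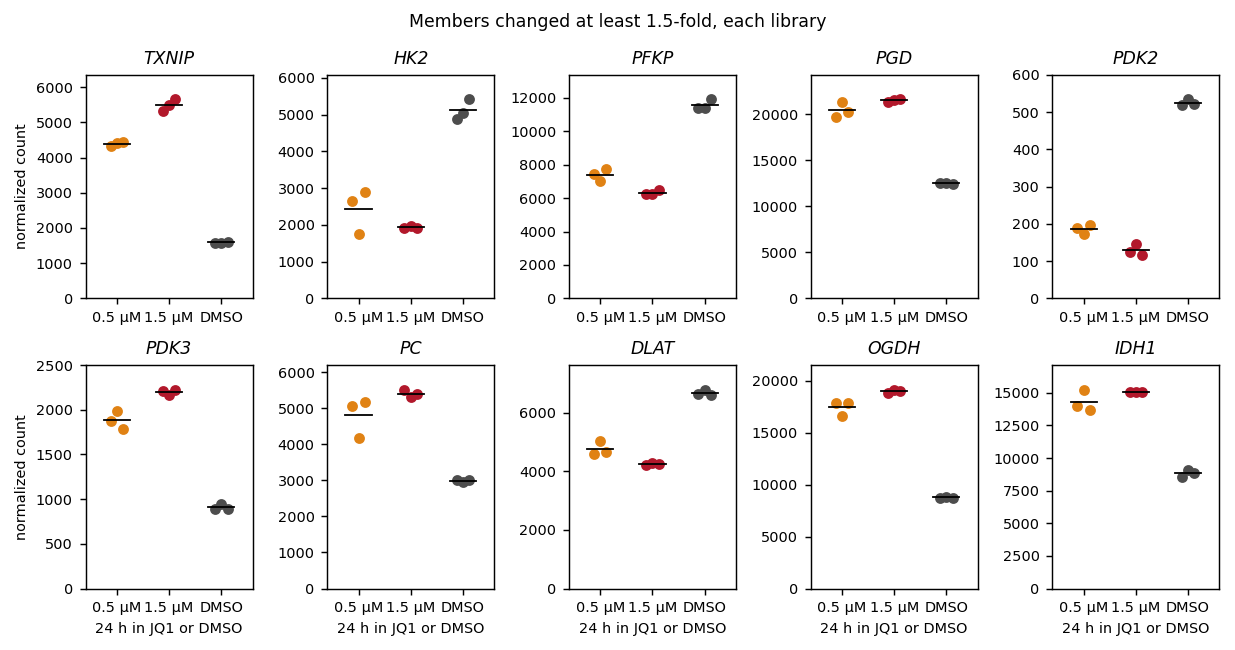
Normalized counts in every library of the 10 members that changed at least 1.5-fold at 1 or both doses, with the group mean as a line. In each panel the 6 JQ1 libraries lie on 1 side of the 3 DMSO libraries, and HK2 and PC show the library of 0.5 µM replicate 2 below its group.

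Between the doses the log2 fold changes of the 45 genes ran from -0.54 to 0.32. Their median absolute value was 0.074, beside 0.11 over all genes. At 1.5 µM against 0.5 µM, TXNIP, PDK3, OGDH and FH were higher and PFKP, PDK2, DLAT, IDH3B and IDH3G lower. These 9 are 20% of the members, against 4.66% higher and 8.09% lower over all genes tested (12.7% in all). None of the 9 reached 1.5-fold, while 0.206% of all genes were higher and 0.959% lower by that much, 1.16% in all. The largest were PDK2 (log2 fold change -0.54 ± 0.10, limma adjusted p = 0.00783), TXNIP (0.32 ± 0.033, adjusted p = 0.000426), PFKP (-0.23 ± 0.039, adjusted p = 0.00582) and PDK3 (0.23 ± 0.048, adjusted p = 0.0142). The libraries of 19 of the 45 members did not overlap between the doses, against 33.7% of all genes.

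These calls between doses rest on few libraries. Without the 3 libraries with H19 none of the 9 passed in limma, with 7 members at an unadjusted p under 0.05, and TXNIP was then at 0.37 (adjusted p = 0.0635). That fit has 1 library at 1.5 µM, which is assumed to vary like the other groups. Over all 20 alternatives the adjusted p ranged from 2.26e-14 to 0.0635 for TXNIP and from 7.88e-06 to 0.29 for PFKP, each lost only without those 3 libraries. For PDK2 it ranged from 0.00114 to 0.11, lost also on FPKM values (adjusted p = 0.0554). PDK3 lost its call without 1.5 µM replicate 3 (adjusted p = 0.0617; range 0.000836 to 0.298), and DLAT without any 1 of the 1.5 µM libraries (0.069 to 0.076; range 0.00206 to 0.296). IDH3B lost it without any 1 of the 1.5 µM libraries or DMSO replicate 2 (0.056 to 0.124), IDH3G without any 1 of the DMSO or 1.5 µM libraries or 0.5 µM replicate 3 (0.0603 to 0.155), OGDH without any 1 of the DMSO or 1.5 µM libraries (0.0565 to 0.129), and FH without DMSO replicates 1 or 2, 0.5 µM replicate 3 or any 1 of the 1.5 µM libraries (0.0501 to 0.13). The replicate block also ended the calls of IDH3B, IDH3G and OGDH (adjusted p = 0.0558, 0.0716 and 0.055). With 0.5 µM replicate 2 left out, 8 members were higher and 11 lower, as were 1342 and 1875 of all 17514 genes.

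In that library, 0.5 µM replicate 2, 8 of 9 upper glycolytic genes and 5 of 6 lower glycolytic genes were below both other 0.5 µM libraries, while 5 of 6 pentose phosphate genes and 9 of 14 TCA cycle genes were above both. Of the pyruvate entry genes 3 were below and 4 above, and of the lactate dehydrogenase genes 1 was below and 1 above. Over all 45 members 46.7% were below both and 44.4% above both, near the 40.3% and 42.6% of all genes tested, and a pattern by role was not tested. Its log2 difference from the mean of replicates 1 and 3 was -0.66 for HK2, -0.34 for GPI, -0.31 for ALDOA and -0.29 for PC, and 0.31 for SUCLG1, 0.24 for PDHB, 0.24 for IDH3A and 0.23 for PDHA1. TXNIP was at 0.0075. With replicate 2 left out, the fold changes at 0.5 µM were -0.45 for GPI, -0.30 for ALDOA, 0.43 for PDHB, 0.42 for IDH3A and 0.78 for PC, each still past the test.

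Among regulators of these pathways, MYC, which activates many glycolytic genes, had 22651, 22313 and 22715 normalized counts at 0.5 µM, 19647, 19846 and 19962 at 1.5 µM, and 31633, 31714 and 31562 in DMSO (log2 fold change -0.49 ± 0.024 and -0.67 ± 0.024, limma adjusted p = 3.51e-08 and 2.33e-09). HIF1A rose by 0.26 and 0.29. Of 10 hypoxia-inducible genes outside glycolysis, 0.5 µM JQ1 gave 5 higher and 4 lower, and 1.5 µM gave 4 of each. The shares past the test were 90% and 80%, beside 70% and 73.1% of all genes. DDIT4, an inhibitor of mTORC1 signalling, fell by 0.83 and 1.35, VEGFA, an angiogenic factor, by 0.62 and 0.97, and EGLN1, an oxygen-sensing prolyl hydroxylase, rose by 0.55 and 0.71. EPAS1 was highest in the 3 libraries with H19 (427 to 584 normalized counts), with 82.0 to 131 in the remaining JQ1 libraries and 12.4 to 21.3 in DMSO.

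Genes that branch off these pathways also changed in both directions, with 9 of 20 higher and 8 lower at 0.5 µM and 9 higher and 6 lower at 1.5 µM. Thus 85% and 75% of the 20 passed, against 70% and 73.1% of all genes. PYGB, the brain glycogen phosphorylase, which releases glucose 1-phosphate from glycogen, had 26218, 23398 and 26634 normalized counts at 0.5 µM, 30517, 29524 and 30119 at 1.5 µM, and 13316, 13242 and 13530 in DMSO (0.93 ± 0.045 and 1.17 ± 0.045, limma adjusted p = 3.29e-08 and 3.79e-09). PYGL, the liver form, rose by 0.69 and 0.81. GFPT2, a hexosamine pathway enzyme at under 1 FPKM, rose by 1.42 and 1.46. Of 12 further glycolytic genes tested, 0.5 µM JQ1 gave 5 higher and 2 lower, and 1.5 µM gave 6 higher and 5 lower. Past the test were 58.3% and 91.7% of these 12, with 70% and 73.1% of all genes. PGAM2, the muscle-type mutase, was among those that rose, by 0.76 and 0.68.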

How the data were processed

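RNA-seq of COR-L279 cells gave 9 libraries, 3 per group. The deposited gene table holds the authors' normalized counts (a signal of gene counts divided by 1 DESeq2 size factor per library, per the file headers), from which whole reads were recovered for 100% of values within 0.001. The deposited FPKM table was made by the authors with RSEM, and cutadapt, STAR and the hg19 genome are named per the submitters' processing notes, with no versions. Log2(normalized count + 1) values with at least 10 in 3 libraries (17514 genes) were tested with limma-trend (limma 3.58.1, R 4.3.3) on all 9 libraries, with Benjamini-Hochberg adjustment over all genes at 0.05. Fold changes are on that scale, and depth was 60721187 to 88482001 reads. The 45 members and all gene lists were chosen with earlier results of these data known. Library values are given for members changed at least 1.5-fold, the extremes of each role and isozymes. Of each other list, up to 3 genes past the test with the largest change and a mean of at least 100 normalized counts are named, and others named were chosen after their values were seen. Overlapping genes and promoters come from GENCODE and RefSeq annotation of GRCh38, by name, with no coordinates converted. Alternatives included edgeR 4.0.16 and DESeq2 1.42.0 on recovered reads, FPKM values (log2(FPKM + 0.1)), other pseudocounts, filters and scalings, and left-out libraries. The fitting code was tested on simulated data. Some listed genes are not reported here.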

Additional observations from a re-analysis of the deposited data

How the results depend on the processing

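For the 45 genes, 81 results past the test (36 at each dose against DMSO and 9 between doses) were recomputed under 20 alternatives, 1620 values in all. Of these, 1545 kept their direction and their side of the threshold, 75 (19 results) no longer passed, and 0 reversed. Against DMSO, the members higher and lower ranged from 17 to 21 and from 14 to 19 at 0.5 µM, and from 17 to 20 and from 15 to 21 at 1.5 µM. The comparison of 1.5 µM with 0.5 µM JQ1 depended most on the settings, and the cause was not tested. With all libraries, 816 genes were higher and 1417 lower, 4 and 5 of them members. FPKM values gave 174 and 718 genes, and 1 and 3 members. Upper-quartile scaling gave 2 members higher. The replicate block, with the replicate number as a term, gave 3 members lower between doses and ended the calls of IDH3B, IDH3G and OGDH there (adjusted p = 0.0558, 0.0716 and 0.055). It ended no other member call. Deviations from the group means correlated at -0.0552 to 0.164 between same-numbered libraries and at -0.154 to 0.0698 between differently numbered ones. Whether same-numbered libraries share more than a number was not tested. Leaving out 1 library gave 241 to 1342 genes higher, 761 to 1875 lower, 1 to 8 members higher and 2 to 11 lower. The highest counts came without 0.5 µM replicate 2. Leaving out a 1.5 µM library gave 241 to 399 genes higher and 761 to 928 lower, and leaving out DMSO replicate 2 gave 503 higher. Without the 3 libraries with H19, 0 genes were higher and 48 lower, with 0 and 0 members in limma, while 2681 genes and 7 members had an unadjusted p under 0.05. With all libraries, edgeR called 8 members (840 genes higher and 1443 lower) and DESeq2 13 (1164 and 1689). On FPKM values the log2 ratios relative to DMSO were -1.03 for PFKP to PFKL, -0.32 for PFKM to PFKL and 0.50 for ENO2 to ENO1 at 1.5 µM, and 0.62 at 0.5 µM and 0.72 at 1.5 µM for ALDOC to ALDOA, and LDHB to LDHA at 0.5 µM was -0.23 (-0.12 on normalized counts). Upper-quartile scaling moved the median gene by -0.054 at 0.5 µM and -0.051 at 1.5 µM, and FPKM values by -0.032 and -0.055. With 3 libraries per group, changes that are small beside the spread between libraries can be missed.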
